A study of Mus musculus with 6 samples.

Results

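The Schlafen family was examined in hearts of old and young mice. It was taken as 7 genes, Slfn1, Slfn2, Slfn3, Slfn4, Slfn5, Slfn8 and Slfn9, each found by its gene name among 43629 named gene models of the deposited count table, and all 7 passed the filter on low counts with 14413 genes in all. The family was chosen by its values in the same comparison of old with young hearts, so its own values are given below as a description and carry no test. Hearts came from male C57BL/6 mice of 22 months (old, 3 hearts) and of 2 months (young, 3 hearts), each from a separate animal fed normal chow. The labels name no genetic change or treatment at either age, and the material was total RNA of the heart. Depth ran from 13673856 to 15583364 counted reads a library. The text on RNA extraction in the labels names another material, NRVMs, while every sample is labelled as heart tissue. Heart muscle genes were abundant in all 6 libraries: Myh6, the main myosin heavy chain of the adult mouse heart, averaged 13500 ± 1620 CPM in old hearts and 22600 ± 1820 CPM in young hearts (SD, n = 3 each). Cultured heart muscle cells would show such genes too, so these levels do not settle the conflict within the labels. CPM are counts scaled to the size of the library.

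Schlafen genes encode a family of proteins that many mouse cells make in response to interferons, the cytokines of antiviral defence, and that were first described in developing T cells. All share a core domain related to nucleic acid binding, and several members of the family in mammals bind or cut transfer RNA and so limit protein synthesis. The mouse genes fall into short forms (Slfn1 and Slfn2), intermediate forms (Slfn3 and Slfn4) and long forms with a helicase-like end (Slfn5, Slfn8 and Slfn9). In the immune system they are best known from T cells, monocytes and macrophages, where Slfn2 is needed for cells to stay at rest.

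The 7 genes lie in a single cluster of 264 kb on chromosome 11 of the mouse genome (build GRCm38). In order along the chromosome, Slfn5 (ENSMUSG00000054404) covers 82951349 to 82964840 on the plus strand. Slfn9 (ENSMUSG00000069793, 82978390 to 82991830) and Slfn8 (ENSMUSG00000035208, 83002158 to 83020810) follow on the minus strand. Slfn2 (ENSMUSG00000072620, 83065112 to 83070678), Slfn1 (ENSMUSG00000078763, 83116849 to 83122670), Slfn4 (ENSMUSG00000000204, 83175186 to 83190216) and Slfn3 (ENSMUSG00000018986, 83191330 to 83215154) are on the plus strand. RefSeq promoter sequences of build GRCm38.p6, which run from 250 bases before to 50 bases after the transcription start, were matched for all 7 genes. Stretches of them are shown because several of these genes were higher in the same hearts, and because the letters they share divide the cluster into its long members and the rest. Capitals mark a match to GAAANNGAAA, the core of the interferon-stimulated response element bound by interferon regulatory factors and STAT complexes, or to CAGGAAGT, a site of ETS factors, on either strand. Each is written 5′ to 3′ on the strand of its gene. The RefSeq start of Slfn5 lies downstream of the start of the gene model given above, so the stretch shown for Slfn5 is inside that model.
Slfn5, chr11:82951922-82951981, plus strand: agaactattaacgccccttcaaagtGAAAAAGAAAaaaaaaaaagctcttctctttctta
Slfn9, chr11:82991841-82991900, minus strand: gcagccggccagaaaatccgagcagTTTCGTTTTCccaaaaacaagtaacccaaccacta
Slfn8, chr11:83020824-83020883, minus strand: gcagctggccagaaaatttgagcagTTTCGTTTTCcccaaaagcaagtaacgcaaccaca
Slfn2, chr11:83065032-83065089, plus strand: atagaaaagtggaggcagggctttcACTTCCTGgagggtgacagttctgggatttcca
Slfn1, chr11:83116721-83116778, plus strand: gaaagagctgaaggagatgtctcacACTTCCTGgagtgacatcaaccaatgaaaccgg
Slfn4, chr11:83175088-83175145, plus strand: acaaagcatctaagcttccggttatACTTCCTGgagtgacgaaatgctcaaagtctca
Slfn3, chr11:83191245-83191320, plus strand: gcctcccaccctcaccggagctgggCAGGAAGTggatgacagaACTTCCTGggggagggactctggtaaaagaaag

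Each long member held a match to the core of the interferon element in its promoter, and each of the other 4 held the ETS letters. The match has the same letters in Slfn8 and Slfn9 but other letters in Slfn5. The longest run common to the promoters of all 3 long members was 7 bases, present in 1.83% of promoters. GAAANNGAAA was present in 3.44% of 32851 mouse promoters of the same length and CAGGAAGT in 3.33%. The run of 15 bases that opens with the capitals of Slfn1 and Slfn4 is shared by no promoter in the table other than theirs. Its first 11 bases also occur in Slfn2, at 55 bases before the start, against 74 bases in Slfn1 and 73 bases in Slfn4. Slfn8 and Slfn9 share a run of 20 bases upstream of their interferon element, present in 3 promoter sequences of the table, which lists 2 starts for Slfn8. The gamma-activated site, TTCNNNGAA, was in 8.30% of all promoters and in none of the 7. The AP-1 site, TGANTCA, was in 7.81% of all promoters and in that of Slfn4, 34 bases before the start. No match overlapped a match to another motif. The 4 motifs were chosen after these sequences had been read, and a match is a description of letters and not a site shown to be used.

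Slfn4, an intermediate member made by cells of the monocyte and macrophage lineage, showed the widest gap between the ages. It had 15.4, 12.7 and 70.9 CPM in old hearts, against 0.206, 0.271 and 0.193 CPM in young hearts. All 3 old hearts lay far above all young hearts, and old 3 stood 5.58 times above old 2. The mean was 33.0 ± 32.8 CPM in old hearts and 0.224 ± 0.0419 CPM in young hearts (SD, n = 3 each), a log2 fold change of old over young of 7.15 ± 0.90 (SE). The young level rests on 3, 4 and 3 reads, so the size of the ratio is known only roughly. Without old 3 the log2 fold change was 5.92. In bulk tissue, a difference in the number of cells that make an RNA and a difference in the RNA made per cell cannot be told apart, and this holds for every gene described here.

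The short members differed in the same direction. Slfn1, whose forced expression stops the growth of T cells in mice, had 5.88, 5.39 and 8.68 CPM in old hearts and 0.619, 0.271 and 0.322 CPM in young hearts. Its means were 6.65 ± 1.78 CPM in old and 0.404 ± 0.188 CPM in young hearts, with a log2 fold change of 4.02 ± 0.38. Slfn1 was close to the limit of what these libraries show in young hearts, with 9, 4 and 5 reads. Slfn2 had 36.8, 45.1 and 68.6 CPM in old hearts and 11.7, 9.16 and 13.5 CPM in young hearts. Its means were 50.2 ± 16.5 CPM in old and 11.4 ± 2.16 CPM in young hearts, with a log2 fold change of 2.13 ± 0.24. Neither gene had an old heart within the range of the young hearts, and old 3 was the highest in both.

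The long members did not move alike. Slfn8 had 14.0, 17.2 and 30.3 CPM in old hearts and 3.37, 2.51 and 3.48 CPM in young hearts. Its means of 20.5 ± 8.61 CPM in old and 3.12 ± 0.529 CPM in young hearts gave a log2 fold change of 2.71 ± 0.31. Slfn8 thus stood clear of the young range in every old heart. Slfn9 had 1.96, 2.70 and 4.01 CPM in old hearts and 1.37, 1.83 and 1.29 CPM in young hearts. Its log2 fold change was 0.94 ± 0.35, from means of 2.89 ± 1.04 CPM in old and 1.5 ± 0.292 CPM in young hearts. The gap between the lowest old heart and the highest young heart was narrow for Slfn9. Slfn5, a long member, had 54.5, 40.1 and 63.8 CPM in old hearts and 68.8, 76.4 and 79.0 CPM in young hearts. Its log2 fold change was −0.50 ± 0.17, from means of 52.8 ± 11.9 CPM in old and 74.7 ± 5.32 CPM in young hearts. Slfn5 was therefore the only member with all old hearts below all young hearts.

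Slfn3, known from differentiation of the gut epithelium in rats, was the only member whose ages overlapped. It had 2.76, 2.27 and 5.79 CPM in old hearts and 4.40, 3.66 and 3.03 CPM in young hearts. The old hearts held both the lowest values and the highest one, that of old 3. The log2 fold change was −0.04 ± 0.36, and it was −0.55 without old 3 and 0.20 without old 2. Slfn3 starts less than 2 kb after the end of Slfn4 on the same strand, and the ratio of Slfn4 to Slfn3 reads was 5.58, 5.59 and 12.2 in old hearts against 0.0469, 0.0741 and 0.0638 in young hearts.

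**Figure D1:**
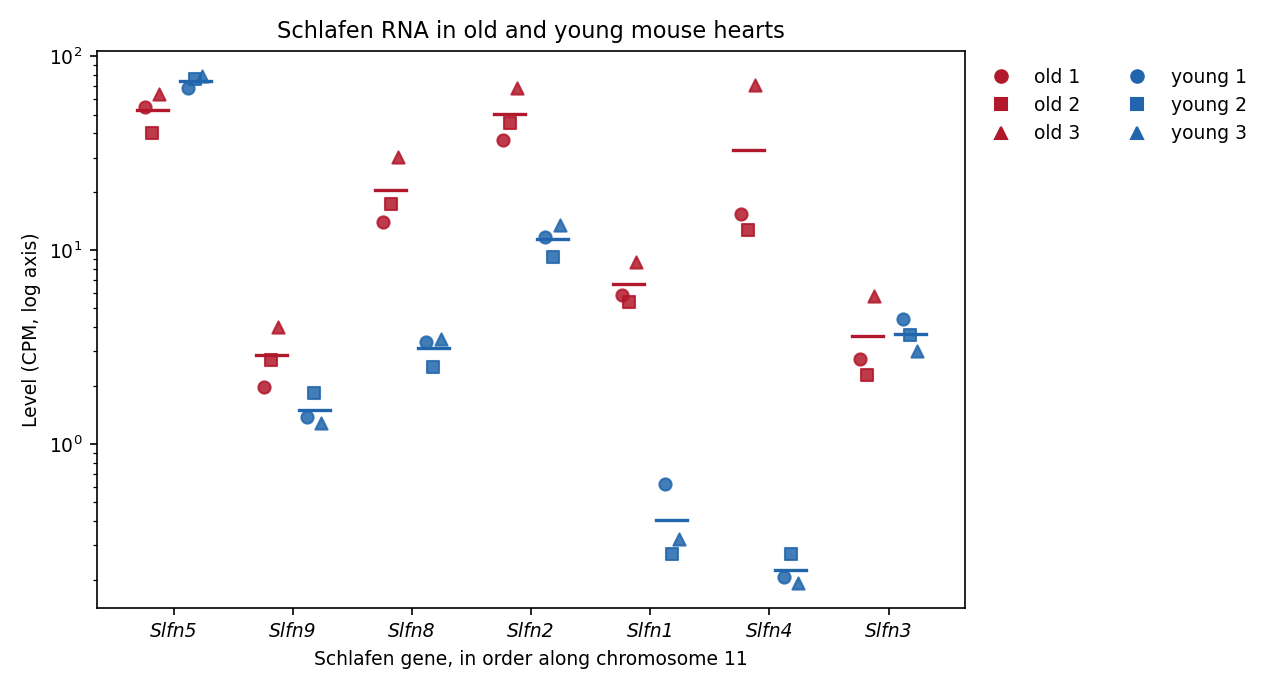
Level of each Schlafen gene in each heart, in CPM on a log axis, with genes in their order along chromosome 11, old hearts in red on the left and young hearts in blue on the right, and a bar at each mean (n = 3 each). Slfn4 and Slfn1 show the widest gaps, Slfn3 overlaps, Slfn5 is lower in old hearts, and old 3 (triangles) is the highest library for 6 of the 7 genes.

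In edgeR's quasi-likelihood test over all genes, with a Benjamini-Hochberg adjusted p under 0.05, Slfn1, Slfn2, Slfn4 and Slfn8 were called higher in old hearts, while Slfn3, Slfn5 and Slfn9 were not called. Over all 14413 genes tested 15.1% were called, 8.72% higher and 6.36% lower in old hearts. The family was selected on this comparison, so nothing is read from 4 of 7 against that share. Slfn1 and Slfn4, with few reads in young hearts, passed the filter on low counts only through old hearts. For 5 of 7 members all old libraries lay above all young libraries, which was so for 18.8% of all genes tested, and for 1 of 7 all lay below, which was so for 18.4%. The members' median log2 fold change was 2.13, and that of all genes tested was 0.02. The counts over all genes lean on single libraries: 5570 genes were called without old 1 and 919 without old 3, against 2174 with all libraries. Without young 1, young 2 or young 3 there were 539, 540 and 619, and without old 2 the calls for genes lower in old hearts were 603 in place of 917. The same 4 members were called higher under each of the 15 other settings tried, Slfn9 was called as well without old 1, and Slfn5 was called lower without old 1, with DESeq2 and with no filter on low counts.

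The spread among old hearts was wide for several members, but a wider spread in old hearts was not particular to the family. Across genes in general, the typical spread on the log2 scale was 0.27 among old and 0.14 among young libraries (SD, middle value). Correlations between libraries of the same age ran from 0.958 to 0.978 in old hearts and from 0.985 to 0.988 in young hearts. Slfn4 had a coefficient of variation of 99.6% in old hearts and 18.7% in young hearts. For Slfn8 it was 41.9% in old and 17.0% in young hearts, and for Slfn5 22.6% in old and 7.12% in young hearts. Slfn1, with 26.7% in old and 46.4% in young hearts, was the exception, and its young values come from fewer than 10 reads a library. The library old 3 was the highest of all 6 for 6 of the 7 members, which was so for 17.8% of all genes tested, and young 3 was the highest for Slfn5. Old 3 also had the largest share of counts from mitochondrial genes, 27.5%, against 21.3% in old 1, 18.3% in old 2 and 25 to 26.7% in young hearts. The part of that share in the Schlafen values was not tested.

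Levels per gene length compare the members with each other. In CPM divided by kilobases of exon, Slfn5 led in young hearts at 11.8 ± 0.841, followed by Slfn2 at 6.87 ± 1.30, Slfn3 at 1.08 ± 0.201 and Slfn8 at 0.762 ± 0.129. Slfn9 at 0.251 ± 0.0490 and Slfn1 at 0.217 ± 0.101 overlapped in young hearts, and Slfn4 was last at 0.0564 ± 0.0106. In old hearts Slfn2 led at 30.2 ± 9.92. Slfn5 at 8.34 ± 1.89, Slfn4 at 8.32 ± 8.29 and Slfn8 at 5.01 ± 2.10 overlapped, as did Slfn8 and Slfn1 at 3.57 ± 0.953. Slfn3 at 1.06 ± 0.559 and Slfn9 at 0.484 ± 0.174 came last in old hearts, with Slfn3 above Slfn9 in each heart, although the lowest value of Slfn3 (0.665) lay just below the highest of Slfn9 (0.672). Slfn4, last in every young heart, ranked 3 in old 1, 4 in old 2 and 2 in old 3. The authors' FPKM, their own level per gene length and depth, gave 3.67, 3.08 and 17.1 for Slfn4 in old hearts and 0.05, 0.0658 and 0.0464 in young hearts. For Slfn2 it gave 21, 26.1 and 39.5 in old hearts and 6.76, 5.30 and 7.71 in young hearts. For Slfn5 it gave 11.7, 8.73 and 13.8 in old hearts and 15.0, 16.6 and 17.0 in young hearts. The lengths behind the 2 scales differ for Slfn5 (6326 bases here, 4572 implied by the FPKM) and Slfn3 (3411 and 1876 bases), so their place in the order depends on the gene model. Slfn9 was not used on the FPKM scale.

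The make-up of the family thus differed between the ages. The 7 genes together held 131, 125 and 252 CPM in old hearts and 90.4, 94.1 and 101 CPM in young hearts. Slfn5 made up 41.5, 31.9 and 25.3% of the family's reads in old hearts, against 76.1, 81.2 and 78.4% in young hearts. Slfn4 made up 11.7, 10.1 and 28.1% in old hearts, against 0.228, 0.288 and 0.192% in young hearts. Slfn2 made up 28, 36 and 27.2% in old hearts, against 12.9, 9.73 and 13.3% in young hearts. A single long member therefore held most family reads in each young heart and less than 50% in each old heart.

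**Figure D2:**
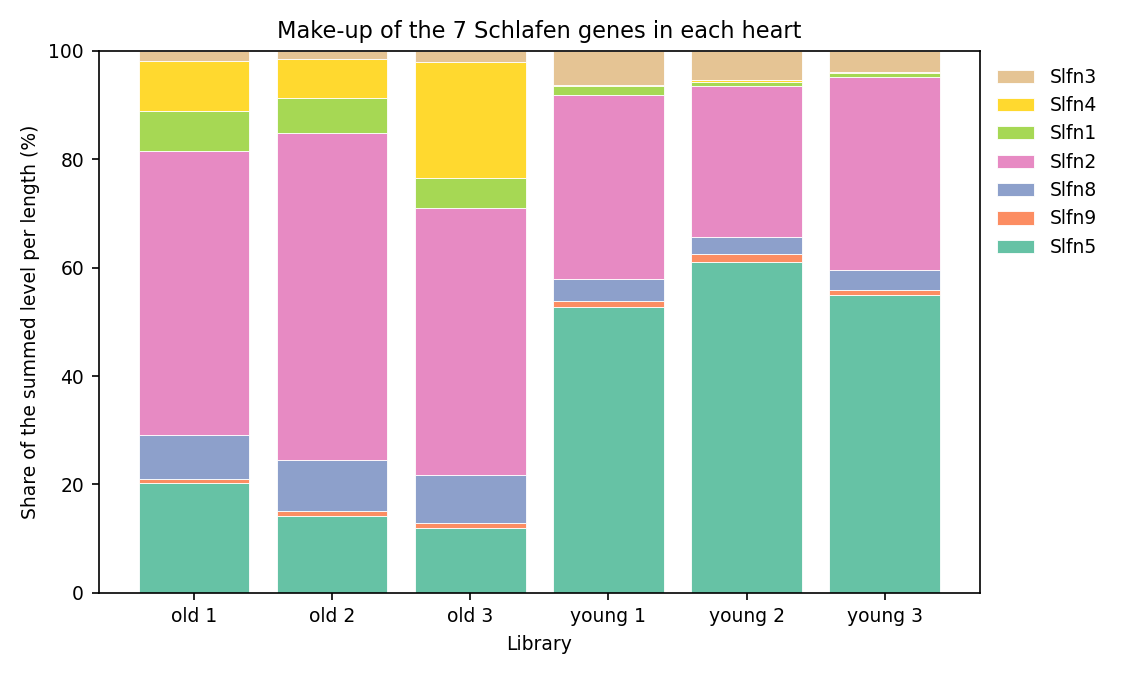
Share of each Schlafen gene in the summed level per gene length of the 7 genes (percent), with 1 bar per heart, old hearts left of young hearts. Slfn2 takes 49.3 to 60.4% in old hearts and 27.8 to 35.5% in young hearts, and Slfn5 12.0 to 20.3% in old hearts and 52.7 to 61.0% in young hearts.

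The members are close copies in places, and a read from a shared stretch cannot be assigned by its letters alone. Of all windows of 50 bases in the annotated transcripts of Slfn4, 6.28% also occur in Slfn3 and 4.01% in the pseudogene Gm11427, and 10.8% occur in some other gene of the family or beside it. The share with any such gene was 12.3% for Slfn3, 14.6% for Slfn8, 11.2% for Slfn9, 4.27% for Slfn2 and 0.606% for Slfn1. Over windows of 100 bases it was 0.271% for Slfn4, 2.75% for Slfn3, 3.38% for Slfn8, 3.71% for Slfn9 and 0.128% for Slfn2. How the authors counted reads that fit several places is not given in the sources used here. With the reads of Slfn3 and Slfn4 added into 1 row the log2 fold change was 3.22, and with those of Slfn8, Slfn9 and the pseudogene Slfn10-ps it was 2.31. Among the genes of the family and beside it, Slfn5 shares windows only with its antisense transcript Slfn5os, on the opposite strand, over 7.38% of its 50-base windows. Genes elsewhere in the genome were not searched for shared windows.

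Other Schlafen genes with a row were low. Slfn5os averaged 1.19 ± 0.0868 CPM in old hearts and 0.870 ± 0.0689 CPM in young hearts, a log2 fold change of 0.44 ± 0.35 that did not pass (edgeR adjusted p = 0.406). The setting for strand is not given in the sources used here, so reads of Slfn5 and Slfn5os may be mixed. Slfn10-ps had 3, 4 and 7 reads in old hearts and 1, 2 and 4 in young hearts. Slfn14, a Schlafen gene of red cell and platelet precursors, had 0, 1 and 1 reads in old hearts and 0, 0 and 1 in young hearts. Slfnl1, a distant relative, had 3, 0 and 2 reads in old hearts and 0, 5 and 0 in young hearts. These last genes were too low to be tested.

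Genes beside the cluster were read from the same fit. Within 500 kb on either side, 48 other genes had a row and 20 were tested. Of these 20, 5 were higher and 1 was lower in old hearts, with a median log2 fold change of 0.17. Over all genes tested 8.72% were higher and 6.36% lower, with a median of 0.02. The count of called neighbours was not itself tested. Before the cluster, none of the 8 tested genes was called by edgeR or DESeq2, 2 had an unadjusted p under 0.05, and log2 fold changes ran from −0.49 to 0.68. Unc45b, a myosin chaperone of striated muscle that ends just before Slfn5, had a log2 fold change of 0.24 ± 0.17 (edgeR adjusted p = 0.338). Inside the span of the cluster, no gene outside the family was tested. After it, the chemokine genes Ccl6, Ccl9 and Ccl5 were the called neighbours with the smallest p. Ccl6 averaged 46.4 ± 16.5 CPM in old hearts and 13.9 ± 3.27 CPM in young hearts, a log2 fold change of 1.73 ± 0.26 (edgeR adjusted p = 0.00467). Ccl9 rose by 1.54 ± 0.24 on the log2 scale (edgeR adjusted p = 0.00555), and Ccl5, made by T cells among others, by 1.53 ± 0.38 (edgeR adjusted p = 0.0268). Ccl6 and Ccl9 were highest in old 1 and Ccl5 in old 2, not in old 3 as the higher Schlafen genes were. Directly after Slfn3, Gm11427 had a log2 fold change of 2.03 ± 0.50 (edgeR adjusted p = 0.0275) and AI662270 one of 1.03 ± 0.30 (edgeR adjusted p = 0.0462). The single neighbour that fell was Mmp28, an extracellular protease, at −1.12 ± 0.28 (edgeR adjusted p = 0.0279). Ccl6 and Ccl9 were called under all 15 other settings, whereas Ccl5, Mmp28, Gm11427 and AI662270 were not called without young 1, young 2 or young 3, which left 2 called neighbours in each case. Those 4 were not called without old 2 either. Gm11427 and AI662270 were also not called without old 3. In all, AI662270 was called under 5 of 15 other settings and Gm11427 under 6 of 14.

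**Figure D3:**
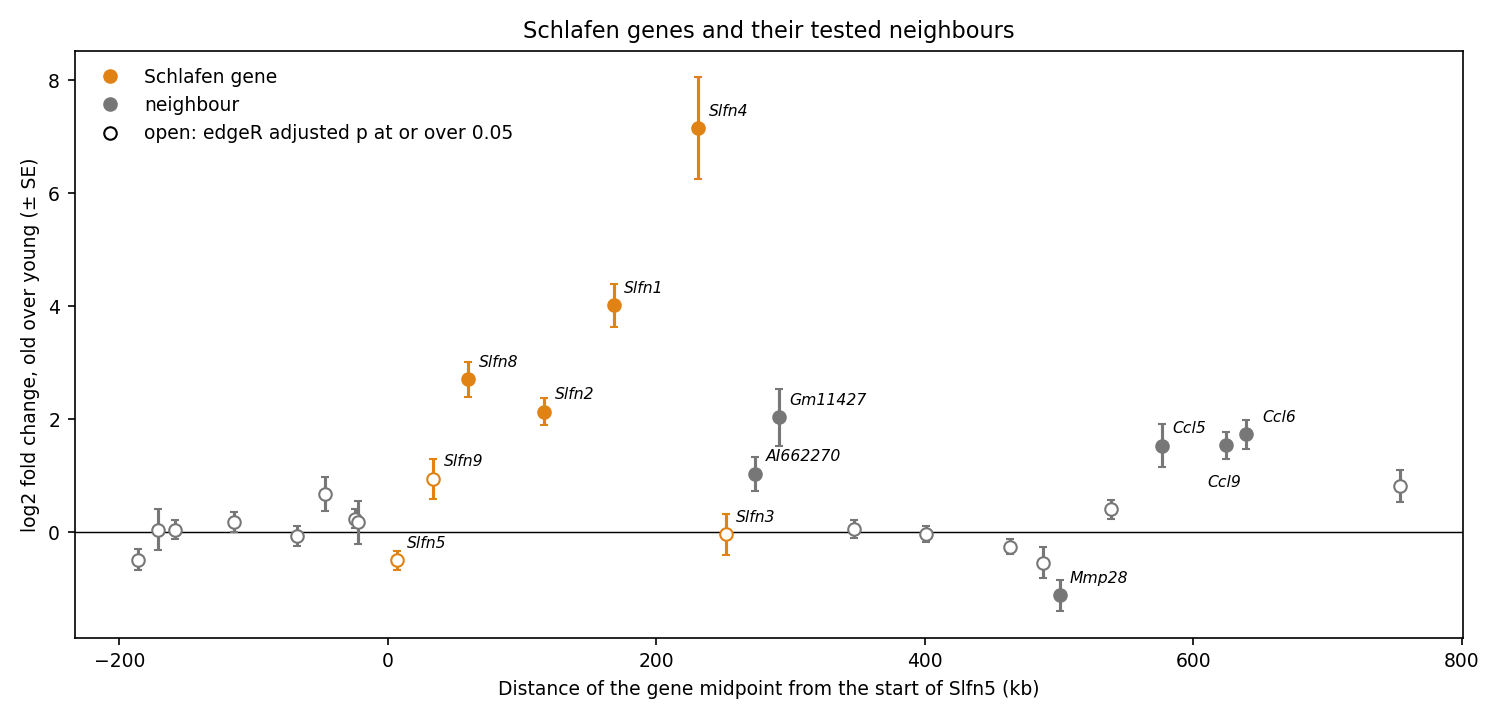
Log2 fold change of old over young (± SE) of the 7 Schlafen genes (orange) and of the 20 tested neighbours within 500 kb (grey), against the distance of each gene's midpoint from the start of Slfn5 in kb. Filled points have an edgeR adjusted p under 0.05. The tested genes left of the cluster lie between −0.49 and 0.68, and the chemokine genes stand apart at the right.

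Schlafen genes are usually described as targets of interferon, so other genes of that pathway were read from the same fit. No interferon gene was tested: 15 of 21 ligand genes had no read in any library, and the 21 together held 0.0613 to 0.520 CPM in old hearts and 0 to 0.137 CPM in young hearts. Of 12 tested genes for receptors and the JAK-STAT pathway, 3 were higher and 1 was lower in old hearts, with a median of 0.07 on the log2 scale. The receptor chains of type I interferon did not pass, with Ifnar1 at −0.07 ± 0.15 (edgeR adjusted p = 0.788) and Ifnar2 at 0.06 ± 0.14 (edgeR adjusted p = 0.808). Of the receptor chains of interferon gamma, Ifngr2 fell by 0.86 ± 0.14 on the log2 scale (edgeR adjusted p = 0.00649), and Ifngr1 stood at −0.22 ± 0.14 (edgeR adjusted p = 0.299). The chains for interferon lambda, Ifnlr1 at 0.08 ± 0.26 and Il10rb at −0.13 ± 0.13, did not pass, and neither did the kinases Jak1 at −0.35 ± 0.13, Jak2 at 0.12 ± 0.13 and Tyk2 at 0.48 ± 0.21.

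Stat2 and Irf9, which act together at the interferon-stimulated response element, both rose. Stat2 averaged 220 ± 102 CPM in old hearts and 40.8 ± 2.74 CPM in young hearts, a log2 fold change of 2.43 ± 0.32 (edgeR adjusted p = 0.00297). Irf9 rose by 1.63 ± 0.22 on the log2 scale (edgeR adjusted p = 0.00296). The core letters of that element were matched in the promoter sequences of Slfn5, Slfn8 and Slfn9, of which Slfn8 alone was among the called members. Variants of these letters and sequence outside those promoter stretches were not searched for any member. The part of the element in the Schlafen values was not tested. Of 33 tested interferon-induced targets, 31 rose and all 33 lay above 0, with a median log2 fold change of 2.11. Irf7, the transcription factor that amplifies the response, had 206, 279 and 482 CPM in old hearts and 30.9, 32.6 and 30.9 CPM in young hearts (log2 fold change 3.36 ± 0.29, edgeR adjusted p = 0.000886). Rtp4, an interferon-induced receptor chaperone, rose by 2.31 ± 0.23 on the log2 scale (edgeR adjusted p = 0.00142). Irf1 at 0.44 ± 0.17 (edgeR adjusted p = 0.110) and Rsad2, the antiviral protein viperin, at 0.90 ± 0.29 (edgeR adjusted p = 0.0684) did not pass. Old 3 was the highest library for 32 of the 33 targets, whose summed level was 1820, 2190 and 4370 CPM in old hearts and 606, 628 and 683 CPM in young hearts. The number of targets that rose was 19 without young 1 and 20 without young 2. Of 7 tested genes listed as feedback inhibitors, 3 rose and all 7 lay above 0, with a median of 0.97. They included Usp18, which removes Isg15 from proteins and blocks the receptor, at 2.44 ± 0.38 (edgeR adjusted p = 0.00506). Isg15 itself, an interferon-induced gene counted in this list, rose by 2.53 ± 0.36 (edgeR adjusted p = 0.00361).

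Markers of blood and immune cells moved with the Schlafen genes in part. Of 15 tested monocyte and macrophage markers, 7 rose and 14 lay above 0, at a median log2 fold change of 0.91, and 4 rose without young 1. Their summed level was 794, 509 and 522 CPM in old hearts and 343, 427 and 402 CPM in young hearts. C1qa, a complement subunit of resident macrophages, rose by 1.22 ± 0.13 (edgeR adjusted p = 0.00142), and Ly6c2, a surface protein of inflammatory monocytes, by 3.39 ± 0.39 (edgeR adjusted p = 0.00179). Ly6c2 had 5, 4 and 5 reads in young hearts and passed the filter on low counts only through old hearts. The general markers Csf1r, at 0.10 ± 0.12 (edgeR adjusted p = 0.602), and Lyz2, at 0.41 ± 0.28 (edgeR adjusted p = 0.342), did not pass. Old 1 was the highest library for 9 of these 15 markers and old 3 for 6, C1qa and Ly6c2 among the 6. Of 13 neutrophil markers 4 were tested and all 4 rose, with a median of 2.10, and 2 rose when old 3 or any 1 young library was left out. S100a8, with 4, 8 and 3 reads in young hearts, and Mmp9, with 7, 4 and 5, passed the filter on low counts only through old hearts. Markers this low in young hearts could be tested only if higher in old hearts, so nothing is read from 4 of 4. Their summed level was 17.5, 14.0 and 23.2 CPM in old hearts and 5.29, 3.46 and 4.38 CPM in young hearts. Csf3r, the receptor of granulocyte growth factor, rose by 1.75 ± 0.24 (edgeR adjusted p = 0.00339) and S100a8 by 3.06 ± 0.54 (edgeR adjusted p = 0.00783), while the defining genes Ly6g, Camp and Elane had no read in any library.

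The other cell type lists showed fewer calls. Of 3 tested dendritic cell markers Itgax rose (1.58 ± 0.41, edgeR adjusted p = 0.0335). That call was lost without old 2, old 3 or any single young library. The summed level of the dendritic list was 40.6, 99.1 and 79.3 CPM in old hearts and 46.4, 44.0 and 49.6 CPM in young hearts. Most of that sum came from a marker that was not called. Itgax itself had 1.41, 2.41 and 2.67 CPM in old hearts and 1.03, 0.543 and 0.579 CPM in young hearts. Of 5 tested T and NK cell markers Il7r rose (3.15 ± 0.65, edgeR adjusted p = 0.0141), but not without young 1 or young 3, and the summed level was 11.5, 11.1 and 9.87 CPM in old hearts and 6.46, 4.07 and 4.25 CPM in young hearts. Il7r had 5, 0 and 5 reads in young hearts and also passed the filter on low counts only through old hearts. None of 6 tested B and plasma cell markers passed with edgeR or DESeq2, 1 had an unadjusted p under 0.05, and their summed level was 14.8 to 22.7 CPM in old hearts and 16.5 to 18.9 CPM in young hearts. That list does not cover every immunoglobulin gene. Ighg2c, an immunoglobulin heavy chain gene outside it and the nearest to Slfn1 in profile, averaged 18.1 CPM in old hearts and 1.3 CPM in young hearts. Of 9 tested platelet and erythroid markers the platelet chemokine Pf4 rose (0.81 ± 0.17, edgeR adjusted p = 0.0148) and the heme synthesis gene Alas2 fell (−1.21 ± 0.35, edgeR adjusted p = 0.0465), and neither call held when any 1 young library was left out. Their summed level was 483, 501 and 1250 CPM in old hearts and 946 to 999 CPM in young hearts, so that old 3 stood above the other old hearts here as well. Most of that sum was RNA of the haemoglobin genes Hbb-bs (261, 225 and 647 CPM in old hearts) and Hba-a1 (147, 167 and 394 CPM). Neither haemoglobin gene was called. Alas2 was not called without old 2 either. Of 9 endothelial markers 3 fell, of 8 fibroblast markers 1 fell and of 9 cardiomyocyte markers 4 fell. The fibroblast gene that fell, Col1a1 (−1.17 ± 0.23, edgeR adjusted p = 0.0117), was not called without old 3, young 2 or young 3. The endothelial gene Pecam1 (−0.59 ± 0.16, edgeR adjusted p = 0.0396) was not called without old 2, old 3 or any single young library, and Myh6 (−0.75 ± 0.15, edgeR adjusted p = 0.0123) not when any 1 young library was left out. The medians of the 3 lists were −0.34, −0.33 and −0.61 on the log2 scale. Actc1, cardiac actin, fell by 1.23 ± 0.16 (edgeR adjusted p = 0.00256), and Cdh5, the cadherin of blood vessels, by 1.0 ± 0.12 (edgeR adjusted p = 0.00235). Without old 1, 3 dendritic, 3 platelet and erythroid and 1 endothelial marker were called higher in old hearts. The part of any of these cell types in the Schlafen values was not tested.

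**Figure D4:**
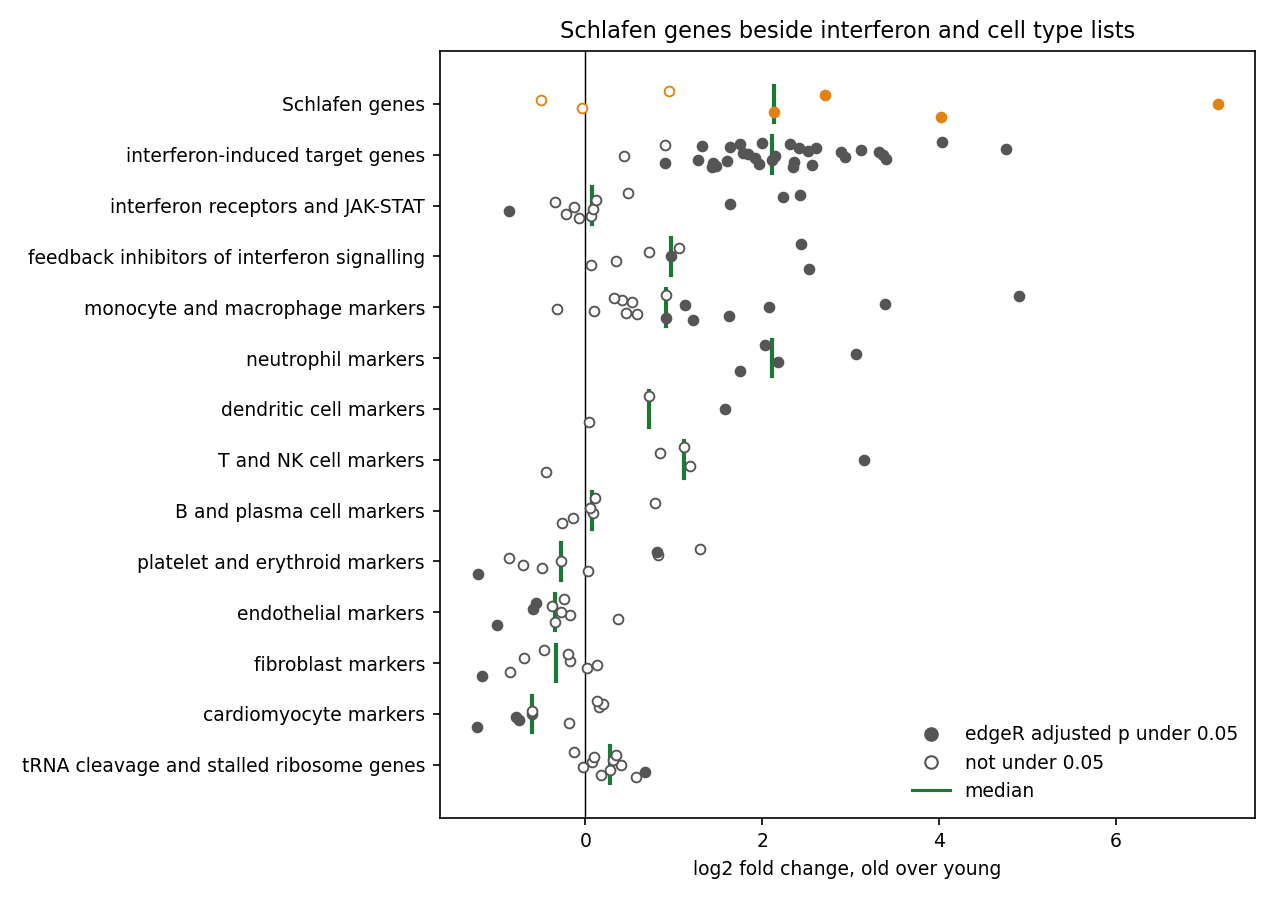
Log2 fold change of old over young for the tested genes of each list, with Schlafen genes in orange, filled points for an edgeR adjusted p under 0.05 and a green bar at each median. The interferon-induced targets lie right of 0 with a median of 2.11, the receptor and JAK-STAT genes centre on 0.07, and the cardiomyocyte, endothelial and fibroblast markers lie mostly left of 0.

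Some Schlafen proteins act on transfer RNA and on translation, and 11 genes of transfer RNA cleavage and stalled ribosomes were tested. With all libraries 1 of them passed: Elac1, which in human cells takes part in the repair of cleaved transfer RNA, rose, at 0.67 ± 0.16 on the log2 scale (edgeR adjusted p = 0.0266). That call was lost without old 2, old 3 or any single young library. Rnh1, the inhibitor of the ribonuclease angiogenin, stood at 0.34 ± 0.12 (edgeR adjusted p = 0.0842). Without old 1 there were 4 genes that rose, Rnh1 among them. The median of the 11 genes was 0.28, and 9 lay above 0. Over all 14413 genes tested 8.72% were called higher, the median was 0.02 and 7432 lay above 0. Nothing is read from 1 of 11 against that share.

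The genes most like each member in profile were found by the root mean square difference of log2 CPM over the 6 libraries, each gene centred on its mean in young hearts, among 12416 named genes outside the family. The measure describes likeness only, since all genes share the same 6 libraries. It is not scaled to the size of the difference between the ages. Members that differ little, such as Slfn3, Slfn5 and Slfn9, therefore lie close to many genes, and Slfn4 to few. Slfn2 had the closest match among the members called higher, with Iigp1 at 0.143, Xaf1 at 0.186 and Igtp at 0.199. Slfn8 was nearest to Oasl2 at 0.248 and to Baiap3 and Ifi47, both at 0.258. Slfn1 was nearest to Ighg2c at 0.342, Ms4a4c at 0.386 and Irf7 at 0.464. Slfn4 had no near match, since its nearest genes were Snhg11 at 0.846, Cd163l1 at 1.12 and Csprs at 1.17, none of which reached as high in old 3. Slfn9 was nearest to Agrn at 0.0938, Tnfrsf4 at 0.120 and Naip6 at 0.122. Slfn3 was nearest to Sox10 at 0.157, Rbm4 at 0.159 and mt-Tn at 0.182. Slfn5 was nearest to Tprn at 0.0517, Mir5125 at 0.0804 and Fzd6 at 0.0820. Among the members themselves, Slfn2 and Slfn8 were the most alike at 0.372, then Slfn3 and Slfn5 at 0.424, and Slfn4 and Slfn5 were the least alike at 4.71.

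**Figure D5:**
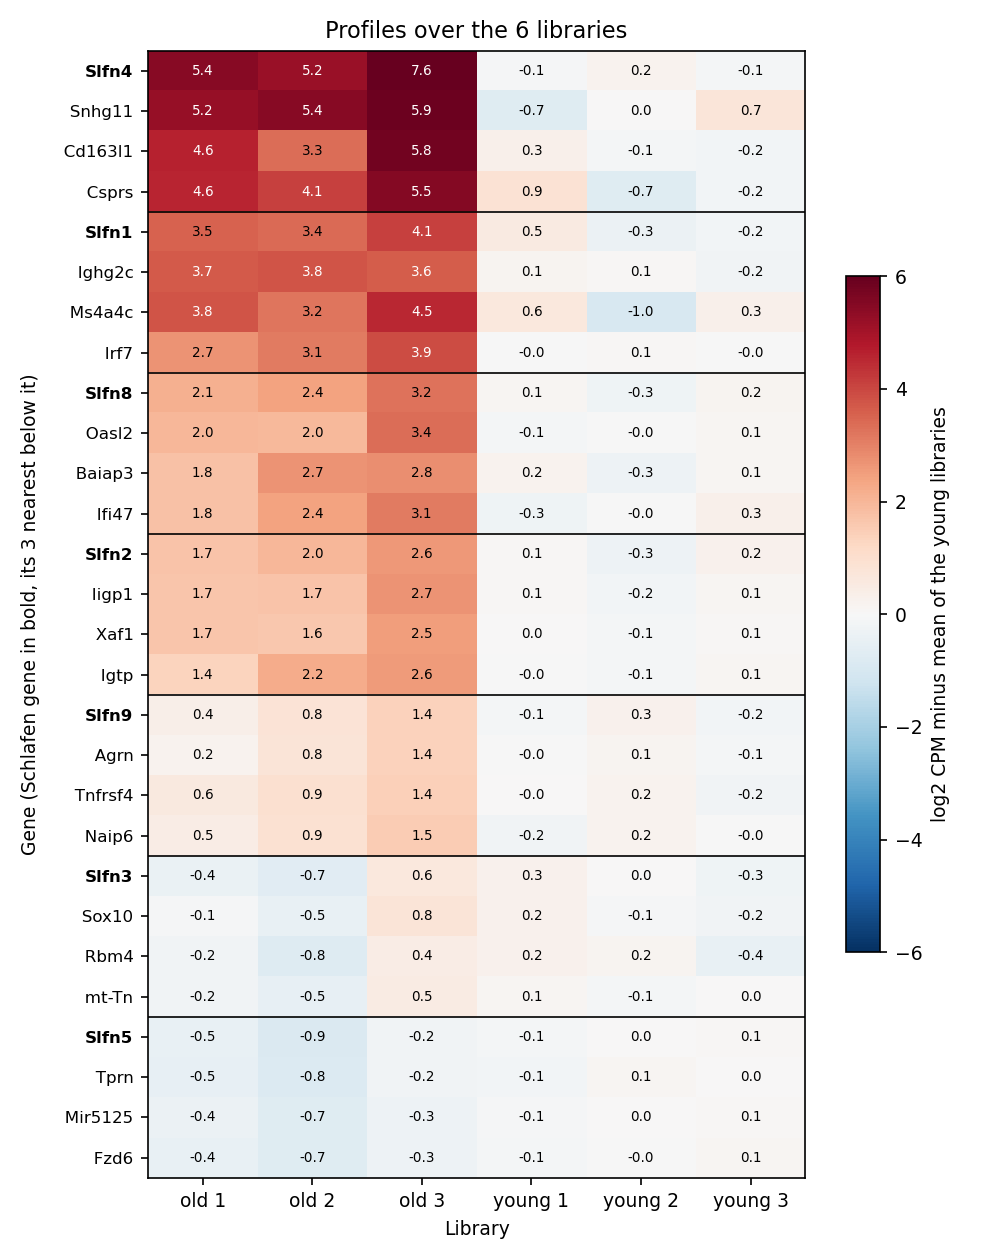
Log2 CPM of each Schlafen gene (bold) and of its 3 nearest genes, minus the gene's mean in young hearts, in each of the 6 libraries, old hearts left of young hearts, with red above and blue below the young mean. Slfn4 reaches 7.6 in old 3, which its nearest genes do not, while Slfn2 and its nearest genes lie together between 1.4 and 2.7 in old hearts.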

How the data were processed

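The authors' deposited table holds raw read counts per gene for 3 old and 3 young hearts, and a second deposited table holds their FPKM for 13170 gene models. Per the submitters' processing notes, HISAT2, featureCounts and Subread were used with build GRCm38.p6; no version, annotation, strandedness or rule for multiply mapped reads was found in those notes. Of 44200 models in the count table, 571 without a name were left out of library sizes and tests; they held 0.295 to 0.368% of the counts. Library sizes set the precision of low genes, and numbers of reads are printed for these.

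The fits used edgeR 4.0.16 (R 4.3.3), and other settings limma 3.58.1 and DESeq2 1.42.0. After filterByExpr and TMM scaling, a quasi-likelihood F test set old against young, and p was adjusted over all genes (Benjamini-Hochberg, threshold 0.05). On simulated data this fit called 55 of 100 genes with a log2 change of 1 in size, and 90 of 100 with a change of 2. A gene that was not called, such as Slfn5 or Slfn9, is thus not shown to be unchanged. CPM use TMM library sizes. The SE is approximate: the size of a log2 fold change over the root of its F statistic. Log2 CPM for profiles used a prior count of 2. Gene models and exon lengths came from GENCODE M21 (GRCm38). The labels call the samples separate animals, so p-values cover the spread between animals.

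The members, lists and motifs were chosen with earlier results of these data known. Named were all members, other Schlafen genes with a row, the 2 genes of each list with the smallest p, all tested receptor and JAK-STAT genes, the 3 called neighbours with the smallest p, and for each member the 3 genes nearest in profile with a mean of at least 1 CPM, leaving out predicted models; the result of 1 gene so named is not reported here. Other genes named (the remaining called neighbours, Unc45b, Irf1, Rsad2, Csf1r, Lyz2 and markers without a read) were chosen after their values were seen. Mmp9, Hba-a1 and Hbb-bs were likewise chosen after their values were seen. Other settings were upper-quartile and RLE factors, a stricter filter and none, limma-voom and DESeq2, limma-trend on log2 FPKM (pseudocounts 1 and 0.1), a replicate block, and each library left out in turn; the merging of close copies was added after seeing the data.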

Additional observations from a re-analysis of the deposited data

How the results depend on the processing

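Slfn1, Slfn2, Slfn4 and Slfn8 were called higher in old hearts under all 15 other settings, and the count of members called higher was 4 to 5 with 1 library left out. The count of members called lower was 1 (Slfn5) with DESeq2 and when low counts were kept, and 0 to 1 with 1 library left out. Log2 fold changes over the alternatives ran from 1.85 to 4.44 for Slfn1, 1.84 to 2.31 for Slfn2, 1.69 to 2.92 for Slfn8, −0.66 to −0.34 for Slfn5 and 0.63 to 1.15 for Slfn9. Slfn4 ran from 2.73 to 7.54. The lowest values of Slfn1, Slfn4 and Slfn8 came from log2 FPKM with a pseudocount of 1, a scale that understates the change of low genes. Slfn3 ran from −0.55 to 0.20. With 1 library left out, 539 to 5570 genes were called, 350 to 2961 higher and 184 to 2609 lower in old hearts, and 19 to 33 interferon-induced targets rose. The causes were not tested. Replicate numbers did not pair the libraries (correlation of deviations −0.0867, −0.0697 and 0.0332), and the fit with a replicate block called 1774 genes, with 4 members higher; Itgax, Pecam1 and AI662270 were not called in it. Slfn9 was not used on the FPKM scale. Depth limits Slfn4 and Slfn1 in young hearts most.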
